A study of Mus musculus with 32 samples.

Results

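Expression of 9 chemokine genes, whose products draw leukocytes into tissue, was followed in mouse kidneys after the anticancer drug cisplatin, in mice with and without microRNA miR-155. They are Cxcl1, Cxcl2, Ccl20, Ccl2, Ccl7, Ccl5, Cx3cl1, Cxcl16 and Cxcl12, and they were chosen by name, with earlier results of these data known. Each is represented by its brightest probe, out of 20659 named genes on the array. All 9 had a probe, and 8 passed the filter on dim probes and were tested among 23743 genes and transcripts. The exception is Ccl20, whose probe stood well above background on 0 of the 32 arrays.

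The kidneys came from male mice aged 12 to 16 weeks. The miR-155-/- mice were B6.Cg-Mir155tm1.1Rsky/J, and the wild type mice were C57BL/6 of another supplier, matched to them for age and weight. Genotype and the origin of the line cannot be told apart. The level of miR-155 itself was not analysed here. Mice of each genotype received a single dose of 20 mg/kg cisplatin and were examined 24, 48 or 72 h later, and saline-injected mice of each genotype stood as the 0 h control. Each of the 8 groups held 4 arrays, and each array held kidney RNA of a different animal.

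Chemokines are small secreted proteins that bind receptors on leukocytes and direct their migration along a gradient. Cxcl1 and Cxcl2 act on Cxcr2 and recruit neutrophils, Ccl2 and Ccl7 act on Ccr2 and recruit monocytes, and Ccl5 recruits T cells and monocytes. Cx3cl1 and Cxcl16 are made as membrane-anchored proteins that proteases can shed, and they bind Cx3cr1 and Cxcr6. Cxcl12 is made constitutively by stromal and endothelial cells and binds Cxcr4, and Ccl20 binds Ccr6. In the injured kidney both tubular cells and infiltrating leukocytes can make these ligands, and the transcription factor NF-kB drives many of the inflammatory ones.

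The sequences that bear on the comparison are the microRNA missing from the mutant and the promoters of the pair of Cxcr2 ligands. Both ligands rose in all 6 cisplatin comparisons, and for the dim Cxcl2 this depended on the background correction, as given below. All sequences are from RefSeq on GRCm38.p6. The mature miR-155-5p lies on the plus strand of chromosome 16, and its seed, bases 2 to 8, is in capitals.
miR-155-5p: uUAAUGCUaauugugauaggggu
The window of Cxcl1 (chr5:90890995-90891294, plus strand) and that of Cxcl2 (chr5:90903649-90903948, plus strand) run from 250 bases before to 50 bases after the gene start. Capitals mark the letters GGAATTTCC, a form of the NF-kB binding motif.
Cxcl1: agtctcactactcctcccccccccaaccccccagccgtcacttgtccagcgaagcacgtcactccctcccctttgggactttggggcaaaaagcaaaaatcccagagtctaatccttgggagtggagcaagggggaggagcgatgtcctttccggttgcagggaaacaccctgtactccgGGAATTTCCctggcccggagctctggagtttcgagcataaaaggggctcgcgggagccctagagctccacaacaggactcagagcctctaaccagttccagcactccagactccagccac
Cxcl2: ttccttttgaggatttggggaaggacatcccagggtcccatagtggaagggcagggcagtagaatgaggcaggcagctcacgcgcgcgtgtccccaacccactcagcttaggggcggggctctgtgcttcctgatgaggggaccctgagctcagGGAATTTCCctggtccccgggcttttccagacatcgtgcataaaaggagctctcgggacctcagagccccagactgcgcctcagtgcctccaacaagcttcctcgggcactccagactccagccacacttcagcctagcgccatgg

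The motif ended 62 bases before the start of Cxcl1 and 88 bases before that of Cxcl2, and the 2 windows share the 14 bases GGGAATTTCCCTGG there. They also share the 20 bases GCACTCCAGACTCCAGCCAC after the gene start. Searched on both strands, GGAATTTCC was found in 104 of 32851 windows of this length (0.317%) and in 2 of the 5 members with a window, which are Cxcl1, Cxcl2, Ccl20, Cx3cl1 and Cxcl12. The looser form GGNNTTTCC, which includes every match of the first, was found in 5.82% of all windows and in Cxcl1, Cxcl2 and Ccl20. The AP-1 motif TGANTCA was found in 7.81% of all windows and in 0 of these 5. Cxcl1 and Cxcl2 neighbour each other on chromosome 5 and Ccl2 and Ccl7 on chromosome 11, each pair with 0 protein-coding genes between its members.

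A level is given below as log2 intensity relative to its own array, where 0 is the intensity that 75% of spots do not exceed. That percentile lay between 1531 and 2647 intensity units, and 68.8% to 82.2% of spots were well above background. Levels of different genes come from different probes and are not compared. Arrays of one group correlated at 0.958 to 0.995 over all genes. Replicate 3 of the miR-155-/- 48 h group and replicate 3 of the miR-155-/- 24 h group stood apart, at 121 and 87.8 on the first principal component, against 18.2 to 70.6 for the other 6 arrays of those groups. The 70.6 was replicate 4 at 24 h, which lay nearer to replicate 3 of its group than to replicates 1 and 2, at 18.4 and 20.1. On the second component, replicate 3 at 48 h was at 61.4 and replicate 3 at 24 h at 59.6. The other miR-155-/- arrays were there at 28.0 to 40.8 for 24 h and at -21.6 to -14.4 for 48 h. Replicate 3 at 48 h thus lay nearer to the 24 h arrays of its genotype, and the reason was not tested. The 10 kidney tubule markers on the list were detected on all 32 arrays.

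Differences were tested with limma across all genes, with Benjamini-Hochberg adjustment, and a gene counts as having risen or fallen at an adjusted p under 0.05. After cisplatin, 6 of the 8 tested chemokines rose in miR-155-/- kidneys at 48 h and 6 at 72 h, against 4 and 3 in wild type kidneys. Cxcl1, Cxcl2 and Cxcl16 made up the 3 that rose at 24 h in either genotype. Those that fell were Cxcl12 in miR-155-/- kidneys at 24 and 48 h, and Cxcl12, Cx3cl1 and Ccl7 in wild type kidneys at 24 h. In RNA of bulk kidney, fewer cells of a type and less RNA per cell cannot be told apart. Cisplatin moved much of the transcriptome. In miR-155-/- kidneys 49.1%, 43.8% and 35.2% of all tested genes passed the same test in either direction at 24, 48 and 72 h, beside 4, 7 and 6 of the 8 chemokines. The shares in wild type kidneys were 38.7%, 23.8% and 25.3%, beside 6, 4 and 3 of the 8. In the direction of a rise the background was 26.6%, 22.7% and 17.7% of genes in miR-155-/- kidneys and 21%, 12.2% and 12.5% in wild type kidneys. In the direction of a fall it was 22.5%, 21.1% and 17.5% in miR-155-/- kidneys and 17.6%, 11.6% and 12.8% in wild type kidneys. The median change of the 8 chemokines was 0.72, 2.21 and 2.61 on the log2 scale in miR-155-/- kidneys, where the median of all genes was -0.01, -0.05 and -0.02. The chemokines' median in wild type kidneys was -0.11, 0.59 and 0.18, beside 0.07, 0.00 and 0.03 for all genes.

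**Figure D1:**
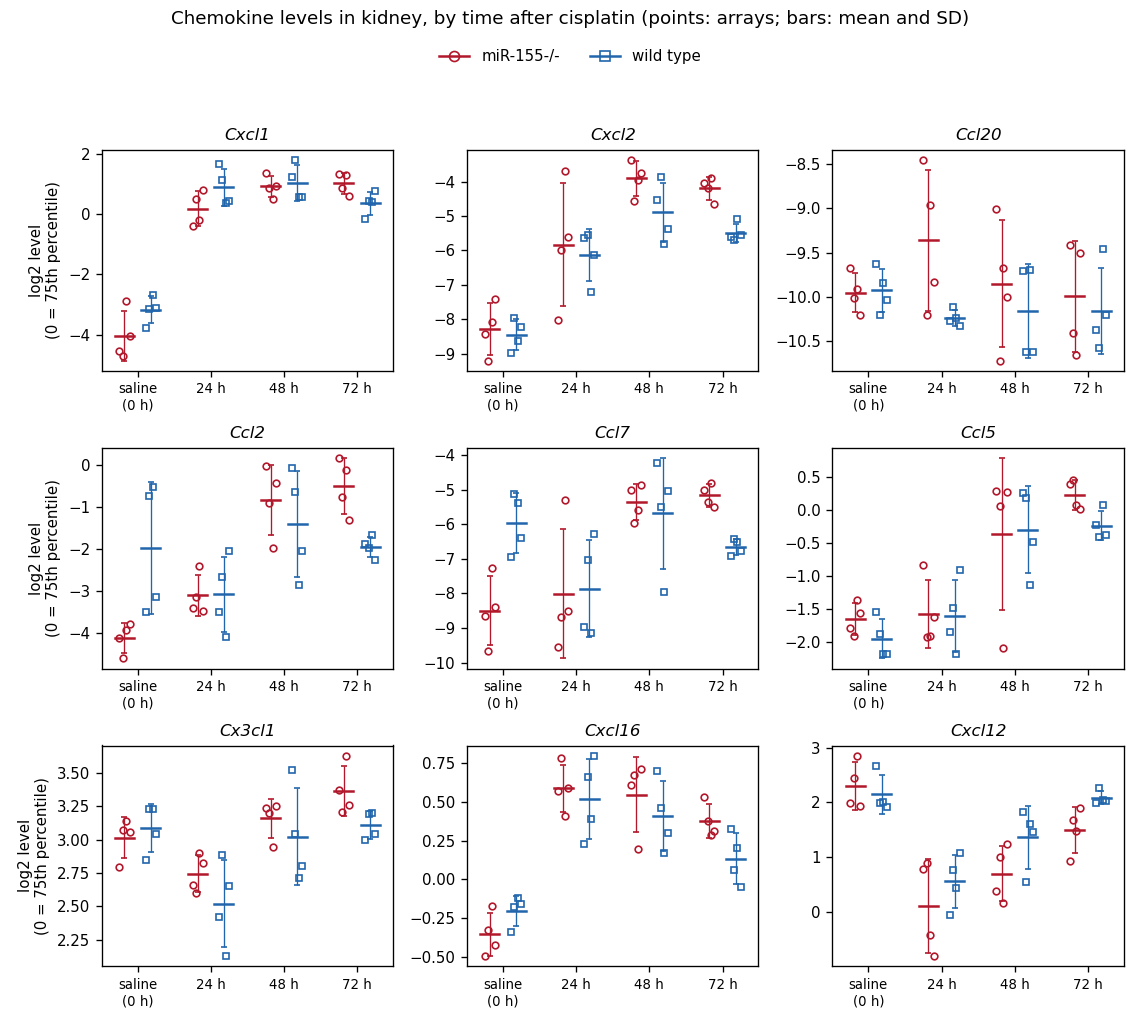
Level of each chemokine on every array, as log2 intensity relative to the array's 75th percentile, by time after cisplatin; circles are miR-155-/- kidneys and squares wild type kidneys, and bars show the mean and SD of 4 arrays. Cxcl1 stands above both saline groups at every time after cisplatin, and Ccl2 in wild type saline kidneys splits into a pair at -0.73 and -0.52 and a pair at -3.52 and -3.15. Ccl20 was well above background on 0 arrays.

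Cxcl1, a neutrophil attractant, rose in all 6 cisplatin comparisons and was well above background on all 32 arrays. In saline-injected mice its level was -4.54, -4.70, -2.88 and -4.06 in miR-155-/- kidneys, against -3.78, -3.14, -2.68 and -3.11 in wild type kidneys. At 24 h it was -0.38, 0.50, -0.20 and 0.82 in miR-155-/- kidneys, against 1.67, 1.12, 0.37 and 0.43 in wild type kidneys. Every one of these 8 cisplatin arrays was above all 8 saline arrays. At 48 h the levels were 1.36, 0.88, 0.51 and 0.94 in miR-155-/- kidneys and 1.24, 1.80, 0.57 and 0.57 in wild type kidneys. At 72 h they were 1.34, 0.86, 1.30 and 0.62 in miR-155-/- kidneys and -0.16, 0.45, 0.40 and 0.76 in wild type kidneys. The genotypes overlapped at every time. The rise of Cxcl1 over saline in miR-155-/- kidneys was 18.8-fold at 24 h, 31.3-fold at 48 h and 33.7-fold at 72 h (log2 difference 4.23, 4.97 and 5.08, SE 0.36 each, 4 arrays a group, limma adjusted p 4.92e-10, 2.67e-11 and 1.6e-11). That in wild type kidneys was 16.9-fold, 18.7-fold and 11.6-fold (4.08, 4.22 and 3.54, SE 0.36 each, limma adjusted p 7.88e-10, 9.94e-10 and 2.18e-08). Within slides that held both groups the log2 rise of Cxcl1 ran from 3.86 to 5.36 in miR-155-/- kidneys and from 3.69 to 4.94 in wild type kidneys.

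Cxcl2, a ligand of the same receptor, was dim. In saline-injected mice its probe was well above background on 1 of 4 miR-155-/- arrays and 0 of 4 wild type arrays. Its level there was -8.44, -9.21, -8.07 and -7.42 in miR-155-/- kidneys and -8.99, -7.96, -8.62 and -8.23 in wild type kidneys. At 24 h it was -8.02, -6.00, -3.68 and -5.62 in miR-155-/- kidneys, against -5.63, -5.54, -7.20 and -6.12 in wild type kidneys. The spread at 24 h was widest in miR-155-/- kidneys, where the lowest array lay within the saline range. At 48 h the levels were -3.37, -4.56, -3.94 and -3.75 in miR-155-/- kidneys and -4.54, -3.87, -5.82 and -5.36 in wild type kidneys. At 72 h they were -4.04, -4.19, -3.90 and -4.65 in miR-155-/- kidneys and -5.61, -5.71, -5.10 and -5.56 in wild type kidneys, and the genotypes did not overlap. Cxcl2 passed the filter on dim probes only through its cisplatin groups. Against the miR-155-/- saline signal, of which 1 of 4 arrays was well above background, the measured rise was 5.49-fold, 20.8-fold and 17.1-fold at 24, 48 and 72 h (log2 difference 2.46, 4.38 and 4.09, SE 0.56 each, limma adjusted p 0.000744, 6.82e-07 and 1.79e-06). The saline level in wild type kidneys is a bound. Cxcl2 was at least 2.90-fold higher there at 24 h, at least 6.79-fold at 48 h and at least 4.49-fold at 72 h. The bounds themselves were not tested. The measured differences, which rest on saline values not well above background, had limma adjusted p 0.0017, 2.51e-05 and 0.000224. The bound sets the mean of the cisplatin arrays against the higher of the probe's own value and the lowest level that was well above background on each saline array. Without replicate 3 of the miR-155-/- 24 h group, which stood apart over all genes and had the highest Cxcl2 of that group, the 24 h difference of Cxcl2 was 1.74 (limma adjusted p 0.00612). The rise of Cxcl2 depended on the background correction. With normexp correction on the median spot signal it passed in miR-155-/- kidneys at 48 h (log2 difference 1.69, limma adjusted p 0.0272) and in no other cisplatin comparison, with log2 differences of 0.28 at 24 h and 1.33 at 72 h in miR-155-/- kidneys and of 0.72, 0.65 and 0.34 in wild type kidneys.

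Ccl20, which attracts Ccr6-bearing lymphocytes and dendritic cells, ranged from -10.72 to -8.46 over the 32 arrays. With no array well above background, no fold change is given.

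Ccl2, the main ligand of Ccr2 and an attractant of monocytes, was measured by 10 spots on each array. In saline-injected mice its level was -4.13, -4.62, -3.95 and -3.80 in miR-155-/- kidneys, against -3.52, -0.73, -0.52 and -3.15 in wild type kidneys. Every wild type saline array was above every miR-155-/- saline array, and replicates 2 and 3 of the wild type group were far above the other pair. The 10 spots of an array had an SD of 0.06 to 0.18 on the log2 scale, while the SD between wild type saline animals was 1.57. At 24 h the levels were -3.42, -3.14, -2.40 and -3.47 in miR-155-/- kidneys and -3.51, -2.68, -4.10 and -2.06 in wild type kidneys. At 48 h they were -0.03, -0.91, -1.98 and -0.44 in miR-155-/- kidneys and -0.08, -0.65, -2.86 and -2.04 in wild type kidneys. At 72 h they were 0.17, -0.76, -0.12 and -1.30 in miR-155-/- kidneys, all above the -1.88, -1.99, -1.68 and -2.26 of wild type kidneys. Ccl2 rose over saline in miR-155-/- kidneys by 9.77-fold at 48 h and 12.3-fold at 72 h (log2 difference 3.29 and 3.62, SE 0.59 each, limma adjusted p 7.19e-05 and 2.12e-05). At 24 h the log2 difference there was 1.01 (limma adjusted p 0.164). The log2 differences of Ccl2 from saline in wild type kidneys were -1.11, 0.57 and 0.03 at 24, 48 and 72 h (SE 0.59 each, limma adjusted p 0.144, 0.545 and 0.983). Without wild type saline replicate 1 Ccl2 passed at 24 h, at -1.62 (limma adjusted p 0.0373), while on the 1 slide that held both groups the difference was 0.83.

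Ccl7, the neighbour of Ccl2 and also a ligand of Ccr2, was likewise highest in miR-155-/- kidneys at 72 and 48 h. In saline-injected mice its level was -8.65, -9.66, -7.26 and -8.40 in miR-155-/- kidneys, with 1 of 4 arrays well above background. In wild type saline kidneys it was -6.96, -5.12, -5.38 and -6.41, with 4 of 4 arrays well above background and replicates 2 and 3 highest, as for Ccl2. At 24 h the levels were -9.56, -8.67, -5.29 and -8.51 in miR-155-/- kidneys and -8.97, -7.03, -9.13 and -6.30 in wild type kidneys, where 1 and 2 arrays were well above background. At 48 h they were -5.01, -5.96, -5.60 and -4.87 in miR-155-/- kidneys and -4.24, -5.52, -7.96 and -5.04 in wild type kidneys. At 72 h they were -5.00, -5.35, -4.80 and -5.51 in miR-155-/- kidneys, all above the -6.91, -6.42, -6.51 and -6.77 of wild type kidneys. Ccl7 in miR-155-/- kidneys measured 8.78-fold above saline at 48 h and 10.03-fold at 72 h, with 1 of 4 saline arrays well above background (log2 difference 3.13 and 3.33, SE 0.75 each, limma adjusted p 0.00143 and 0.000911). At 24 h its log2 difference there was 0.49 (limma adjusted p 0.629). With normexp correction the 48 and 72 h differences were 1.24 and 1.02 and did not pass (limma adjusted p 0.192 and 0.351). Ccl7 fell in wild type kidneys at 24 h by 1.89 on the log2 scale (SE 0.75, limma adjusted p 0.0473), and the groups overlapped. That call was lost with slide as a block (limma adjusted p 0.0705) and with replicate block (0.0584), and on the 1 slide that held both groups the difference was -0.07. With normexp correction the difference was 0.27 (limma adjusted p 0.789). At 48 and 72 h the differences in wild type kidneys were 0.28 and -0.69 (limma adjusted p 0.839 and 0.550).

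Ccl5, an attractant of T cells and monocytes, passed at 48 and 72 h in both genotypes and at 24 h in neither. In saline-injected mice its level was -1.78, -1.91, -1.36 and -1.56 in miR-155-/- kidneys, against -1.55, -1.88, -2.17 and -2.18 in wild type kidneys. At 24 h it was -0.83, -1.92, -1.90 and -1.61 in miR-155-/- kidneys and -1.84, -1.48, -2.18 and -0.91 in wild type kidneys, overlapping with saline. At 48 h it was 0.30, 0.06, -2.09 and 0.28 in miR-155-/- kidneys and 0.26, 0.19, -1.13 and -0.49 in wild type kidneys. The low array at 48 h was replicate 3 of the miR-155-/- group, which also stood apart over all genes. At 72 h the levels were 0.40, 0.46, 0.07 and 0.01 in miR-155-/- kidneys and -0.22, -0.40, 0.07 and -0.38 in wild type kidneys. Ccl5 in miR-155-/- kidneys was 2.44-fold above saline at 48 h and 3.70-fold at 72 h (log2 difference 1.29 and 1.89, SE 0.38 each, limma adjusted p 0.00692 and 0.000242). Without replicate 3 the 48 h difference was 1.86 (limma adjusted p 1.35e-05). With only the arrays of the 2 groups in the fit it did not pass (limma adjusted p 0.0827), and on the 1 slide that held both groups, which carried replicate 3, it was -0.18. Ccl5 in wild type kidneys was 3.14-fold above saline at 48 h and 3.28-fold at 72 h (1.65 and 1.71, SE 0.38 each, limma adjusted p 0.00168 and 0.00106). At 24 h the log2 difference of Ccl5 was 0.09 in miR-155-/- kidneys and 0.34 in wild type kidneys (limma adjusted p 0.873 and 0.505).

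Cx3cl1, the membrane-anchored ligand of Cx3cr1, stayed within a narrow range, 2.13 to 3.63 over the 32 arrays. Its mean was 3.02 ± 0.15 in miR-155-/- saline kidneys and 2.75 ± 0.14, 3.16 ± 0.14 and 3.37 ± 0.19 at 24, 48 and 72 h (SD, n = 4 each). Wild type kidneys had 3.09 ± 0.18 in saline and 2.52 ± 0.32, 3.02 ± 0.36 and 3.11 ± 0.10 at the same times (SD, n = 4 each). Cx3cl1 fell in wild type kidneys at 24 h, 1.48-fold below saline (log2 difference -0.57 ± 0.15, SE, limma adjusted p 0.00373), and not at 48 or 72 h. On the 1 slide that held both groups the 24 h difference was 0.04. Its log2 differences in miR-155-/- kidneys were -0.27, 0.14 and 0.35 (limma adjusted p 0.143, 0.457 and 0.0705).

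Cxcl16, the other anchored ligand and a scavenger of oxidised lipoprotein, rose by less than 2-fold. Its mean was -0.36 ± 0.14 in miR-155-/- saline kidneys and 0.59 ± 0.15, 0.55 ± 0.24 and 0.38 ± 0.11 at 24, 48 and 72 h. Wild type kidneys had -0.20 ± 0.10 in saline and 0.52 ± 0.26, 0.41 ± 0.23 and 0.13 ± 0.17 (SD, n = 4 each). No cisplatin array of either genotype fell within its own saline range. Cxcl16 rose in miR-155-/- kidneys by 1.93-fold, 1.87-fold and 1.66-fold (limma adjusted p 1.9e-06, 4.37e-06 and 7.04e-05). The rise in wild type kidneys was 1.65-fold at 24 h and 1.53-fold at 48 h (limma adjusted p 8.08e-05 and 0.00101), and the log2 difference of 0.34 at 72 h missed the threshold (limma adjusted p 0.0614).

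Cxcl12, the constitutive ligand of Cxcr4, moved the other way. Its mean was 2.30 ± 0.43 in miR-155-/- saline kidneys and 0.12 ± 0.85, 0.70 ± 0.50 and 1.5 ± 0.41 at 24, 48 and 72 h. Wild type kidneys had 2.15 ± 0.35 in saline and 0.56 ± 0.48, 1.36 ± 0.57 and 2.08 ± 0.12 (SD, n = 4 each). Cxcl12 fell in miR-155-/- kidneys to 4.53-fold below saline at 24 h and 3.03-fold below at 48 h (log2 difference -2.18 and -1.60, SE 0.33 each, limma adjusted p 6.86e-06 and 0.000374). It fell in wild type kidneys to 2.998-fold below saline at 24 h (-1.58, SE 0.33, limma adjusted p 0.000428), and at 48 and 72 h the differences were -0.78 and -0.06 (limma adjusted p 0.0906 and 0.915). At 72 h in miR-155-/- kidneys the difference was -0.80 (limma adjusted p 0.0627). A second, dimmer Cxcl12 probe, for another transcript, also passed at 48 h in wild type kidneys (log2 difference -1.11, limma adjusted p 0.0228) and at 72 h in miR-155-/- kidneys (-1.37, limma adjusted p 0.00641).

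Without replicate 3 at 24 h, the same 4 chemokines passed in miR-155-/- kidneys at 24 h, and without replicate 3 at 48 h the same 7 passed at 48 h. Cxcl12 then differed from saline by -2.01 at 24 h and Ccl2 by 3.67 at 48 h on the log2 scale.

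**Figure D2:**
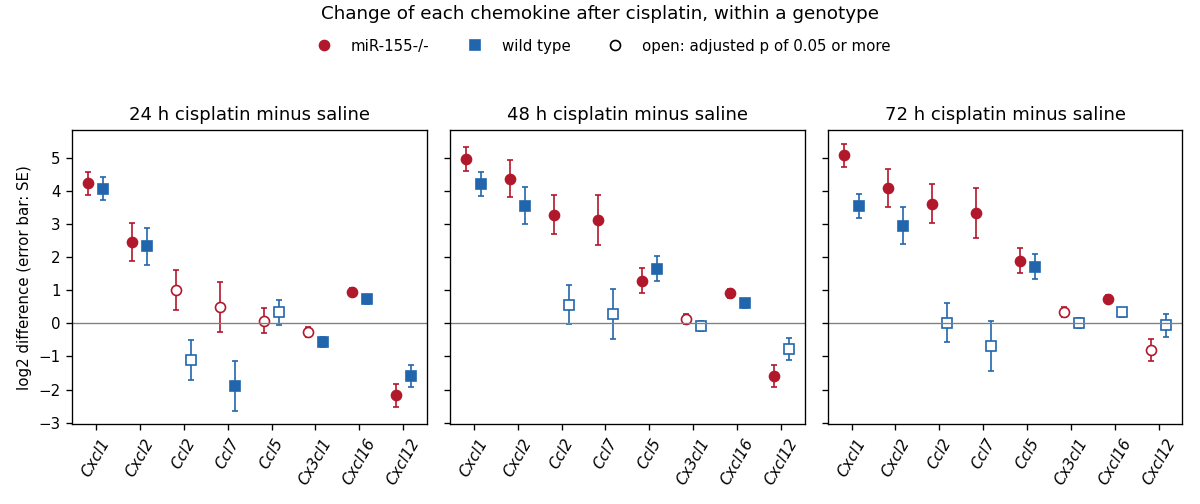
Log2 difference from saline of the 8 tested chemokines at each time, with its SE; circles are miR-155-/- kidneys, squares wild type kidneys, and open symbols did not pass an adjusted p of 0.05. At 72 h Ccl2 lies at 3.62 and Ccl7 at 3.33 in miR-155-/- kidneys, against 0.03 and -0.69 in wild type kidneys, while Cxcl1 lies at 5.08 and 3.54.

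Neighbouring times after cisplatin were compared next. In miR-155-/- kidneys between 24 and 48 h, 2 of the 8 chemokines rose, Ccl2 by 4.84-fold and Ccl7 by 6.26-fold (limma adjusted p 0.0264 and 0.0425), with Ccl7 well above background on 1 of 4 arrays at 24 h, where 4.02% of all genes passed and 2.02% rose. The share stands for 955 genes, and with one array left out the number ran from 357, without replicate 4 at 48 h, to 5138, without replicate 3 at 48 h. In wild type kidneys over the same step Ccl5 rose by 2.48-fold and Cx3cl1 by 1.41-fold (limma adjusted p 0.0193 and 0.0256), where 13.1% of all genes passed and 5.88% rose. Both counts depended on single arrays, running from 0 to 5 in miR-155-/- kidneys and from 0 to 4 in wild type kidneys as each array was left out. The miR-155-/- count was 5 without the 48 h replicate 3, 3 without the 24 h replicate 3, 1 without the 24 h replicate 1 and 0 without any other array of the 2 groups. The wild type count was 4 without the 24 h replicate 4 or the 48 h replicate 3, 1 without the 48 h replicate 2 and 0 without the 24 h replicate 1 or 3 or the 48 h replicate 1. From 48 to 72 h, 0 of 8 passed in miR-155-/- kidneys and 0 of 8 in wild type kidneys by limma, where 6.25% and 0.872% of all genes did. At an unadjusted p under 0.05 the counts were 1 and 2.

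Whether the lack of miR-155 altered these levels was asked by comparing the genotypes at each time. In that comparison 0 of the 8 chemokines passed in saline kidneys and 0 at 24, 48 or 72 h by limma, where 0.114%, 0.08%, 0.101% and 0.72% of all genes passed. At an unadjusted p under 0.05 the counts were 3, 0, 0 and 2. In saline kidneys Ccl2 was 4.43-fold and Ccl7 5.77-fold lower in miR-155-/- kidneys than in wild type kidneys (log2 difference -2.15 ± 0.59 and -2.53 ± 0.75, SE, limma adjusted p 0.313 and 0.454), with Ccl7 well above background on 1 of 4 miR-155-/- arrays. Neither pair of groups overlapped, as was so for 2.73% of all genes in the direction of lower in miR-155-/-. The difference followed the split of the wild type saline animals. On the slides of wild type replicates 3 and 2 the Ccl2 difference was -4.10 and -3.07, and on that of replicate 1 it was -0.61. The remaining gene with an unadjusted p under 0.05 was Cxcl1, at -0.87 ± 0.36 (SE, limma adjusted p 1.0), with overlapping groups.

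At 72 h Cxcl2, Ccl2, Ccl7 and Cx3cl1 were higher on every miR-155-/- array than on any wild type array, which was so for 6.04% of all genes, and Cxcl12 was lower on every one, which was so for 6.8%. For Cx3cl1 the groups nearly touched, with the lowest miR-155-/- array at 3.207 and the highest wild type array at 3.199. The log2 differences of Cxcl2, Ccl2 and Ccl7 were 1.30 ± 0.56, 1.45 ± 0.59 and 1.48 ± 0.75 (SE, limma adjusted p 0.365, 0.326 and 0.488). With only the 8 arrays of these groups in the fit all 3 passed (limma adjusted p 0.0176, 0.0308 and 0.0129). That fit also passed more genes of all kinds, 853 against 171 in the fit of all arrays. On the 3 slides that held both groups the Ccl2 difference was 2.14, 1.85 and 1.13, the Ccl7 difference 1.97, 1.5 and 1.56 and the Cxcl2 difference 1.66, 1.06 and 1.42. Cx3cl1 differed by 0.26 ± 0.15 and Cxcl12 by -0.58 ± 0.33 (SE, limma adjusted p 0.582 and 0.575). For Ccl5 the 95% interval of the 72 h difference ran from -0.31 to 1.24 and for Cxcl1 from -0.07 to 1.40.

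The change from saline was then compared between the genotypes. By limma 0 of 8 chemokines passed at 24, 48 or 72 h, as did 0%, 0% and 0.211% of all genes, and at an unadjusted p under 0.05 the counts were 2, 2 and 4. At 72 h the log2 difference between the changes was 3.60 ± 0.84 for Ccl2 (SE, limma adjusted p 0.0652) and 1.54 ± 0.51 for Cxcl1 (SE, limma adjusted p 0.286). For Ccl7 it measured 4.01 ± 1.06 (SE, limma adjusted p 0.119), with 1 of 4 miR-155-/- saline arrays well above background, and 1.33 with normexp correction (limma adjusted p 0.941). For Ccl2 this sums the genotype difference at 72 h, 1.45, and the opposite one in saline, -2.15. Ccl2 passed with slide as a block (3.83, limma adjusted p 0.0417) and with quantile normalization (3.59, limma adjusted p 0.0450). It also passed without wild type saline replicate 1 (4.11, limma adjusted p 0.0169) or replicate 4 (3.99, limma adjusted p 0.0492), and without miR-155-/- 72 h replicate 4 (3.86, limma adjusted p 0.0310). Without wild type saline replicate 2 or replicate 3 it was 3.18 and 3.11 (limma adjusted p 0.182 and 0.144).

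**Figure D3:**
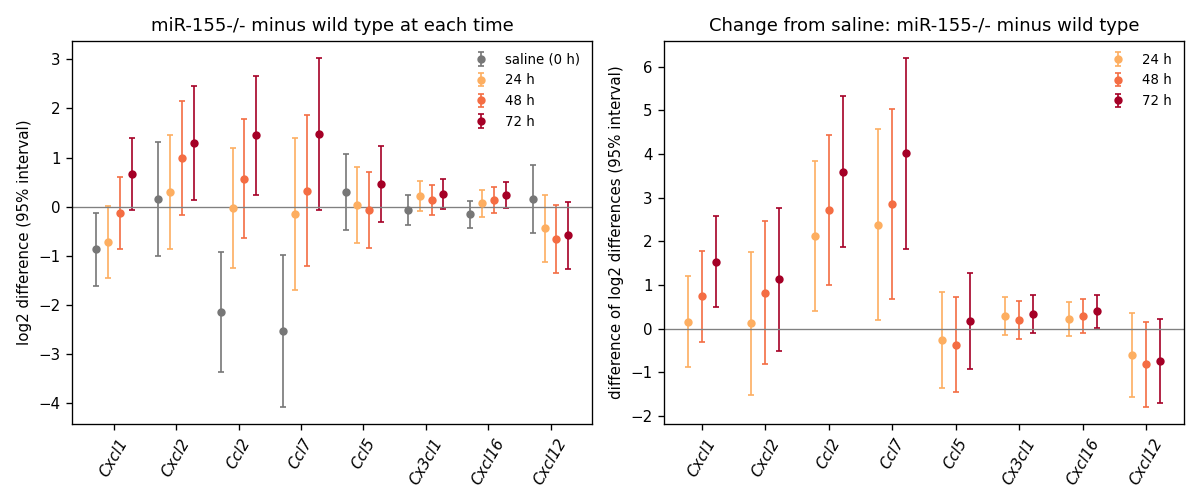
Left, log2 difference of miR-155-/- minus wild type kidneys at each time; right, difference between the genotypes in the change from saline; bars are 95% intervals of the limma fit. Ccl2 and Ccl7 lie below 0 in saline and above 0 at 72 h, and their change from saline differs by 3.60 and 4.01 at 72 h, while the genotype difference of Ccl5 at 72 h is 0.47.

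The order of the 8 groups differed between genes. For Cxcl1 the 6 cisplatin groups lay between 0.19 and 1.05, with neighbours in the order overlapping, and a gap of 3.36 separated them from wild type saline. For Cxcl2 the saline groups ranked lowest, and 1 array of miR-155-/- kidneys at 24 h lay within their range. For Ccl2 the highest means were -0.50 and -0.84, in miR-155-/- kidneys at 72 and 48 h. Wild type saline, at -1.98, ranked above both 24 h groups, with overlap at each step. The miR-155-/- saline group lay lowest, without overlap with the next group, miR-155-/- kidneys at 24 h. The lowest wild type array at 24 h, at -4.10, lay within the miR-155-/- saline range of -4.62 to -3.80. For Ccl5 the 4 groups at 48 and 72 h lay between -0.36 and 0.23 and the other 4 between -1.95 and -1.57. Cxcl12 was highest in the 2 saline groups and wild type at 72 h, with 2.08 to 2.30.

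The pattern over the 32 arrays most like each chemokine was sought by Pearson's r among 16453 other named genes, as a description, since arrays share groups and slides. Cxcl1 ran closest to Psrc1 (0.971), Nkx2-9 (0.967) and Siva1, the last a p53 target. Cxcl2 ran closest to the protease gene Mmp10 (0.943), Lce1i and Rnd1. Ccl2 and Ccl7 were each other's closest (0.881), followed by the adhesion molecule gene Vcam1 (0.880) for Ccl2 and by Casp4, an inflammatory caspase (0.852), for Ccl7. Ccl5 ran closest to the interferon-inducible Ifi27 (0.941) and to Ubd (0.914), Cx3cl1 to the cytokine receptor gene Osmr (0.878), Cxcl16 to the NF-kB subunit gene Nfkb2 (0.915) and Cxcl12 to Adarb1 (0.905). Once each group's mean was removed, Ccl2 still had an r of 0.72 with Ccl7 and of 0.75 with Cx3cl1, while Cxcl1 had 0.45 with Cxcl2.

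Genes of the NF-kB pathway and its known targets rose in both genotypes. Of 17 tested, 12, 14 and 15 rose and 0 fell in miR-155-/- kidneys at 24, 48 and 72 h, against 11, 12 and 10 that rose and 1, 0 and 2 that fell in wild type kidneys. Over all genes 26.6%, 22.7% and 17.7% rose in miR-155-/- kidneys and 21%, 12.2% and 12.5% in wild type kidneys. The median change of the 17 was 1.21, 1.39 and 1.48 in miR-155-/- kidneys and 0.83, 1.18 and 0.83 in wild type kidneys on the log2 scale. Nfkb2, a subunit of the noncanonical pathway, rose by 1.98, 2.05 and 1.87 in miR-155-/- kidneys and by 1.89, 1.56 and 1.07 in wild type kidneys. Relb, its partner, rose by 1.72, 2.10 and 2.20 in miR-155-/- kidneys and by 1.24, 1.18 and 0.99 in wild type kidneys. Icam1, an adhesion molecule for leukocytes, rose at 72 h by 2.42 in miR-155-/- kidneys and by 2.11 in wild type kidneys. At 72 h 0 of the 17 differed between the genotypes by limma, with a median difference of 0.50, and 10 of the 17 were higher on every miR-155-/- array than on any wild type array, which was so for 6.04% of all genes.

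Of the receptors, 18 of 22 were tested and few rose. In miR-155-/- kidneys 2, 1 and 2 rose and 6, 5 and 3 fell at 24, 48 and 72 h, against 1, 1 and 1 that rose and 3, 3 and 6 that fell in wild type kidneys. Beside these counts, 22.5%, 21.1% and 17.5% of all genes fell in miR-155-/- kidneys and 17.6%, 11.6% and 12.8% in wild type kidneys. Ackr4, a decoy receptor that removes chemokines, rose in all 6 comparisons, by 2.99, 2.95 and 2.01 on the log2 scale in miR-155-/- kidneys and by 3.71, 3.25 and 2.64 in wild type kidneys. The Ackr4 probe was well above background on 26 of the 32 arrays. Ccr2, the receptor of Ccl2 and Ccl7, fell in miR-155-/- kidneys by 1.08 at 24 h and 1.60 at 48 h, and its difference at 72 h was -0.66 (limma adjusted p 0.232). In wild type kidneys Ccr2 fell by 1.27, 1.95 and 2.16. The receptors of the chemokines are named here for their ligands, with their values known. Cxcr6, the receptor of Cxcl16, fell at 72 h by 2.15 in miR-155-/- kidneys and by 1.91 in wild type kidneys. Cx3cr1, the receptor of Cx3cl1, fell in miR-155-/- kidneys at 24 h by 1.65 and in wild type kidneys at 72 h by 2.09. On the 2 miR-155-/- arrays that stood apart its level was -5.23 at 24 h and -5.88 at 48 h. Cxcr2, the receptor of Cxcl1 and Cxcl2, had log2 differences of 1.18 in miR-155-/- kidneys and -0.15 in wild type kidneys at 72 h (limma adjusted p 0.116 and 0.884). The Cxcr2 probe was also well above background on 26 of the 32 arrays.

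Other chemokine ligands, 19 tested, divided. In miR-155-/- kidneys 3, 4 and 5 rose and 5, 2 and 5 fell at 24, 48 and 72 h, against 2, 3 and 3 that rose and 2, 4 and 10 that fell in wild type kidneys. Over all genes 26.6%, 22.7% and 17.7% rose in miR-155-/- kidneys and 21%, 12.2% and 12.5% in wild type kidneys, and the shares that fell are those given for the receptors. The median change of the 19 was -0.36, 0.13 and -0.30 in miR-155-/- kidneys and -0.55, -0.43 and -1.07 in wild type kidneys on the log2 scale. The ligands named next with a change are among those that rose in miR-155-/- kidneys, and those that fell are not named. Cxcl10, an interferon-induced attractant of T cells, rose by 3.36, 3.84 and 3.60 in miR-155-/- kidneys and by 3.34, 3.35 and 2.70 in wild type kidneys. Cxcl17 rose by 5.0 at 72 h in miR-155-/- kidneys and by 4.37 in wild type kidneys. Cxcl5, another ligand of Cxcr2, rose by 5.84 at 72 h in miR-155-/- kidneys, and its difference in wild type kidneys was 1.68 (limma adjusted p 0.0953). Cxcl17 and Cxcl5 were dim on some arrays, each well above background on 28 of the 32. In wild type saline kidneys Cxcl5 was -9.04, -4.48, -4.65 and -7.20, highest in replicates 2 and 3, the animals with high Ccl2 and Ccl7. Ccl12, another mouse ligand of Ccr2, showed the same split there, at -4.71, -2.39, -2.19 and -4.32.

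**Figure D4:**
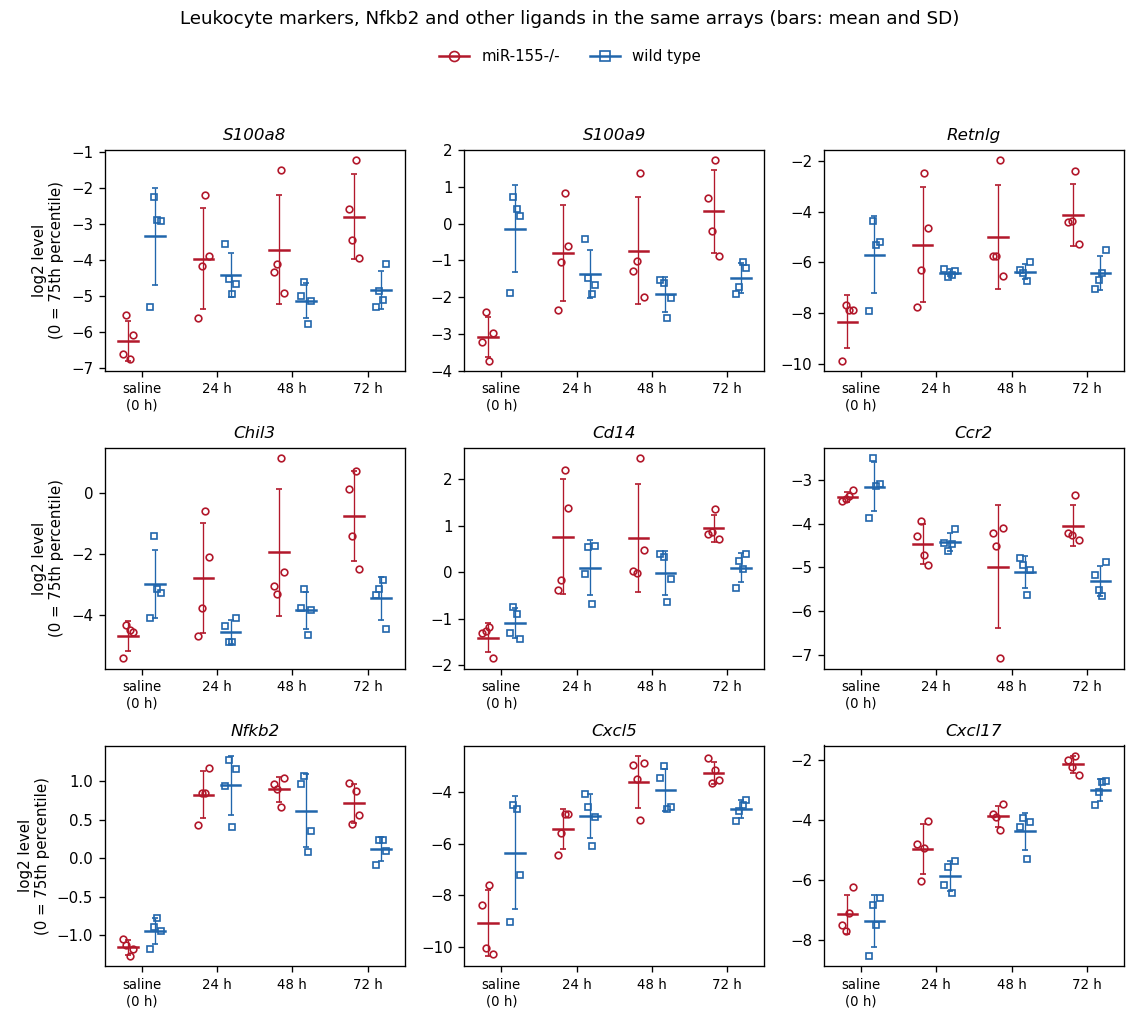
Level on every array of 3 of the 8 tested neutrophil markers (S100a8, S100a9, Retnlg), 2 of the 11 tested monocyte and macrophage markers (Chil3, Cd14), the receptor gene Ccr2, Nfkb2 and the ligands Cxcl5 and Cxcl17, drawn as for the chemokines, with mean and SD. The markers drawn are those that rose in miR-155-/- kidneys. Of the 11, 3, 4 and 2 fell there at 24, 48 and 72 h, and the other 5 neutrophil markers did not pass. S100a8 in miR-155-/- kidneys lies above its saline arrays at 48 and 72 h, while in wild type kidneys replicates 2, 3 and 4 of saline, at -2.25, -2.89 and -2.93, lie above every cisplatin array.

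Markers of the cells these ligands attract moved in different directions. Of 8 tested neutrophil markers, S100a8, S100a9 and Retnlg rose in miR-155-/- kidneys at each time and the other 5 did not pass, while in wild type kidneys 0 rose at any time by limma and S100a9 fell at 48 h by 1.79. Over all genes 26.6%, 22.7% and 17.7% rose in miR-155-/- kidneys and 21%, 12.2% and 12.5% in wild type kidneys, where 11.6% fell at 48 h. Retnlg was well above background on 28 of the 32 arrays. S100a8 was at -6.61, -5.52, -6.74 and -6.08 in miR-155-/- saline kidneys, against -5.30, -2.25, -2.89 and -2.93 in wild type saline kidneys. At 72 h it was -2.58, -3.43, -1.23 and -3.93 in miR-155-/- kidneys, against -5.29, -4.84, -5.10 and -4.10 in wild type kidneys. At 24 h S100a8 was -5.60, -4.16, -2.19 and -3.89 in miR-155-/- kidneys and at 48 h -4.33, -4.11, -1.51 and -4.90, highest in both groups on replicate 3, the arrays that stood apart, and the marker counts at these times were not tested without them. The difference between the changes at 72 h passed for S100a8 (4.94, limma adjusted p 0.0255) and S100a9 (4.76, limma adjusted p 0.0229). For S100a8 it sums opposite genotype differences, with every wild type array above every miR-155-/- array in saline and below at 72 h. Compared directly by limma, 0 of the 8 neutrophil markers differed between the genotypes in saline and 0 at 72 h. Like Ccl2, S100a8 was high in wild type saline replicates 2 and 3 and low in replicate 1, and unlike Ccl2 it was also high in replicate 4. The mean log2 level over the 8 neutrophil markers ran from -3.87 to -3.16 in miR-155-/- saline kidneys, -3.18 to -1.60 in wild type saline kidneys, -2.77 to -1.49 in miR-155-/- kidneys at 72 h and -3.05 to -2.54 in wild type kidneys at 72 h.

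Of 11 tested monocyte and macrophage markers, Cd14 rose in miR-155-/- kidneys at each time, by 2.17, 2.14 and 2.35, and in wild type kidneys at 24 h by 1.19. Chil3 rose in miR-155-/- kidneys by 2.76 at 48 h and 3.94 at 72 h. Csf1r, the receptor that sustains macrophages, fell in all 6 comparisons, by 1.02, 1.0 and 1.02 in miR-155-/- kidneys and by 0.88, 0.66 and 0.91 in wild type kidneys. In all 1, 2 and 2 of the 11 rose and 3, 4 and 2 fell in miR-155-/- kidneys, against 1, 0 and 0 that rose and 3, 4 and 7 that fell in wild type kidneys, beside the same shares of all genes as for the ligands and receptors. Of 9 lymphocyte and NK cell markers 0 rose in any comparison by limma, while 1, 6 and 5 fell in miR-155-/- kidneys at 24, 48 and 72 h, against 0, 0 and 3 in wild type kidneys. Cd3d, a T cell receptor component, fell at 72 h by 2.08 in miR-155-/- kidneys and by 1.76 in wild type kidneys. Of the 10 kidney tubule markers 9, 9 and 8 fell in miR-155-/- kidneys and 10, 4 and 4 in wild type kidneys, with 0 that rose. Beside the lymphocyte and tubule counts, 22.5%, 21.1% and 17.5% of all genes fell in miR-155-/- kidneys and 17.6%, 11.6% and 12.8% in wild type kidneys. Ly6g, Ly6c2 and Cd68, which define neutrophils, monocytes and macrophages, were not analysed here. The part of these marker changes in the chemokine results was not tested.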

How the data were processed

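Kidney RNA of 32 mice was hybridised to Agilent one-colour arrays, and the deposited scanner files were used. Per the file headers, Agilent Feature Extraction 10.7.3.1 made the background-subtracted processed signal, an intensity per spot. Each was divided by its array's 75th percentile and put on the log2 scale. Spots flagged as outliers were dropped, spots of a probe averaged, and the brightest probe taken per gene. Genes were tested if well above background on all 4 arrays of a group and with at least 3 values in each group. limma 3.58.1 (R 4.3.3; lmFit, eBayes with trend) fitted 8 group means over the 32 arrays, with Benjamini-Hochberg adjustment over 23743 genes in each of 17 comparisons. The authors' deposited value table of linear intensity was an alternative, and normexp (offset 50) used the median spot signal. The scan day as a block was added after seeing the data. The 9 chemokines and all gene lists were chosen with earlier results of these data known. The rule for named genes was the 9 chemokines, up to 4 called members with the smallest adjusted p in each list, and the 3 genes most like each chemokine. The fit was tested on simulated data. Replicate numbers did not pair the animals, and the number of arrays limits the precision. Promoter windows of Ccl2, Ccl5, Ccl7 and Cxcl16 were not used here.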

Additional observations from a re-analysis of the deposited data

Results flagged for a closer look

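Among 72 sets of 4 arrays, 9 chemokines in 8 groups, 2 had 1 array far from the other 3, where chance gives about 1 in 20. Ccl5 in miR-155-/- kidneys at 48 h was lowest in replicate 3, at -2.09, against 0.06 to 0.30 on the other arrays. Cxcl12 in wild type saline kidneys was highest in replicate 1, at 2.67, against 1.93 to 2.0 on the other arrays.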

How the results depend on the processing

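Most chemokine values kept their side of the threshold. A change of sign was counted, as reversed, only where the main or the alternative value passed. With one array left out, 1239 were unchanged by this rule, 16 came past the threshold and 25 dropped below it. Array weights kept 121 and moved 15 past the threshold. The authors' table kept 135 and moved 1 past it, and normexp correction kept 125, moved 2 past it, dropped 8 below it and reversed 1. Within single slides, where no p is given, 119 values lay near the main value and 2 reversed. Another 71 moved from the main value by at least its SE times the square root of 2. The reversed values were Ccl7 in wild type kidneys at 24 h against saline, 0.27 with normexp correction, Cx3cl1 in the same comparison, 0.039 within slide 6, and Ccl5 in miR-155-/- kidneys at 48 h against saline, -0.18 within slide 1. Values that did not pass also changed sign without being counted, among them Ccl2 in wild type kidneys at 24 h against saline, 0.83 within slide 6.

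Counts of chemokines called moved in the smaller comparisons. For the difference between the genotypes in the change from saline at 72 h, 0 passed, against 2 with quantile normalization, 1 with slide as a block, 3 with array weights, 2 with only the groups compared and 0 to 1 with one array left out. At 48 h that count was 1 with array weights. For 48 h against 24 h in miR-155-/- kidneys, 2 passed, against 1 with no filter on dim probes, 4 with scan day as a block, 5 with array weights, 0 with only the groups compared and 0 to 5 with one array left out. In wild type kidneys 2 passed, against 1 with slide as a block, 4 with array weights, 1 with only the groups compared and 0 to 4 with one array left out. For miR-155-/- against wild type kidneys, 1 passed in saline with array weights, and at 72 h 1 with array weights and 3 with only the groups compared. For 72 h against 48 h in miR-155-/- kidneys 1 passed with array weights. The cause was not tested.

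Replicate numbers did not pair the animals, with a mean correlation of -0.00461 over 112 pairs of arrays and 9 of 32 arrays correlating best with their own number. With the replicate block, the 72 h difference between the genotypes' changes passed for 30 genes in place of 50, Ccl7 was lost in wild type kidneys at 24 h (limma adjusted p 0.0584) and in miR-155-/- kidneys for 48 h against 24 h (0.0567), and Ccl5 passed for 48 h against 24 h in miR-155-/- kidneys (0.0479).

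Counts over all genes fell with normexp correction, in wild type kidneys to 5223, 2961 and 3029 genes at 24, 48 and 72 h, against 9180, 5657 and 6018, and in miR-155-/- kidneys to 7129, 5164 and 4759, against 11663, 10396 and 8364. With array weights 11777 and 12533 genes passed in wild type kidneys at 48 and 72 h, and with only the groups compared 5806 passed in miR-155-/- kidneys at 48 h and 9736 in wild type kidneys at 72 h. Over the settings other than leaving out an array, the count for miR-155-/- against wild type kidneys ran from 9 to 143 in saline, 5 to 22 at 24 h, 1 to 661 at 48 h and 63 to 3619 at 72 h, against 27, 19, 24 and 171. For the difference between the genotypes' changes it reached 2 at 24 h and 145 at 48 h, against 0 and 0, and ran from 4 to 1216 at 72 h, against 50. For 48 h against 24 h it ran from 5 to 4487 in miR-155-/- kidneys and from 1514 to 7625 in wild type kidneys, against 955 and 3110, and for 72 h against 48 h it ran from 16 to 4432 in miR-155-/- kidneys and reached 1835 in wild type kidneys, against 1483 and 207. With one array left out the counts for the genotypes ran from 16 to 60 in saline, 14 to 36 at 48 h and 42 to 360 at 72 h, that for the difference between changes at 72 h from 12 to 160, that for 48 h against 24 h from 357 to 5138 in miR-155-/- kidneys and 1762 to 3090 in wild type kidneys, and that for 72 h against 48 h from 682 to 1805 in miR-155-/- kidneys and 62 to 256 in wild type kidneys. Signal over background limits Cxcl2 and Ccl7, which were not well above background on 8 and 9 arrays.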
